A study of Mus musculus with 3 samples.

Results

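The 9 genes described here encode proteins that carry a cell from G1 into S phase: the D-type cyclins Ccnd1, Ccnd2 and Ccnd3, their kinases Cdk4 and Cdk6, cyclin E1 (Ccne1) with its kinase Cdk2, and the inhibitors Cdkn1a (p21) and Cdkn1b (p27). They were chosen by name, and each was found once among the 33696 genes of the count tables. They were followed in 5 kinds of CD45+ tumor-infiltrating cells, namely CD8, CD4, Foxp3-positive and NK cells and macrophages, each split into cycling cells, with at least 3 UMIs of Mki67 and Top2a together, and non-cycling cells, with at most 2. The gates held 33319 of 71909 cells.

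The tumors were KP1, a mouse small-cell lung cancer (SCLC) line mutant for Rb and p53, grown under the skin of female B6129SF1/J mice, so that the immune cells studied came from the host and not from the mutant line. Each mouse received 500000 tumor cells, then 3 µg of functional cytokine into the peritoneum every second day, from day 7 until the tumors were taken on day 19. The cytokine was mono-IL-10, labelled Supermono-10, an IL-10 variant that signals mainly through STAT3, or the IL-10/2-Trikine, labelled 10/2-Trikine, which also recruits the IL-2 receptor β chain and adds STAT5. The third group received the IL-10/2-Trikine together with 4 doses of anti-PD-1 antibody RMP1-14, 200 µg each, the first on day 7 and the last on day 19. Each group is 1 library, and the number of mice behind it is not given in the sources used here. The methods give an age of 5 to 6 weeks for mice when bought, not an age at treatment. The protocol can also be read as giving anti-PD-1 to every group, and another passage of the methods gives an earlier first day, so the group names follow the sample titles and treatment labels. An untreated library was not analysed here.

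D-type cyclins are made when growth factor or cytokine receptors signal, and with Cdk4 or Cdk6 they phosphorylate the retinoblastoma protein, which releases E2F transcription factors. E2F factors then switch on Ccne1 and many genes of DNA synthesis, and cyclin E with Cdk2 completes the step into S phase. Cdkn1a, a target of p53 that other signals also induce, and Cdkn1b, which is held high in resting lymphocytes, bind these kinases. In T and NK cells IL-2 is a classical signal for this step, and mature macrophages divide mainly in response to colony-stimulating factors.

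The libraries held between 158570946 and 197176873 UMIs, and 22235 to 26967 barcodes per library passed the filters. Between 137 and 180 barcodes were shared by any pair of libraries, at most 0.793% of a library. Marker sums were read beside the gate names: the summed level of Il2ra, Ikzf2, Ctla4, Tnfrsf18 and Tnfrsf4 was 7038 to 7721 UMIs per 1000000 UMIs (CPM) in non-cycling Foxp3-positive cells and 2028 to 3558 CPM in CD4 cells, and the summed level of Trac, Trbc2, Cd5 and Cd28 was 3376 to 4293 CPM in the non-cycling T cell gates and 33.4 to 50.9 CPM in macrophages. The NK markers Ncr1, Klrb1c, Klre1 and Eomes summed to 2254 to 2592 CPM in non-cycling NK cells and 49.9 to 293 CPM in the T cell gates, and the T cell sum was 348 to 395 CPM in NK cells. The genes of the NK and T cell sums are also on the lists that named the clusters, so these sums describe the gates and are no independent check of them, and only the Foxp3-positive sum used genes of no list. One of the 2 NK cell-like clusters had γδ T cell receptor genes (Trgv1, Trdc, Trgc1 and Trgc4) among its 10 leading genes. It gave 2.31% to 6.73% of the whole NK gate. In the cycling NK gate its share was 0%, 15.8% and 10.1% in the mono-IL-10, IL-10/2-Trikine and combination libraries. Over the whole gate, Trdc was lower in this cluster, at 0 to 28.8 CPM against 58.1 to 60.1 CPM in the others. Trac was higher, at 43.2 to 149 CPM against 30.04 to 40.6 CPM. Ncr1 was lower, at 282 to 372 against 549 to 776 CPM. So were Klrb1c (76.3 to 223 against 448 to 508 CPM) and Eomes (43.2 to 111 against 222 to 360 CPM). Tested NK results without this cluster are given below, and the NK treatment ratios include it. Cycling cells were deeper than non-cycling cells of the same type, with median UMIs of 9892.5 to 10941 against 3139 to 3956 in CD8 cells and 6619 to 9291 against 5075.5 to 6438 in macrophages. The cycling cut is a line through a range: in CD8 cells 55 to 75 cycling cells per library had exactly 3 UMIs of Mki67 and Top2a, and 109 to 224 non-cycling cells had exactly 2. The T cell gates leave out 2 clusters with most markers of T cells, because 1 marker of another class and 0 of T cells stood among their 10 leading genes, and 3480 of their 4967 cells would otherwise have entered the gates. Counted in, they would raise the cycling CD4 cells from 95, 204 and 234 to 224, 906 and 939 in the 3 libraries. The doublet caller Scrublet marked 14.4% and 16.8% of barcodes in the mono-IL-10 and IL-10/2-Trikine libraries and 4.09% in the combination. Its calls were uneven over the gates: they took 28.4% of cycling CD4 and 22.2% of cycling Foxp3-positive cells of the IL-10/2-Trikine library, against 1.05% and 4.44% in the mono-IL-10 library and 0.427% and 0% in the combination. In cycling CD8 cells the shares were 13.0% against 3.83% and 0%.

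**Figure D1:**
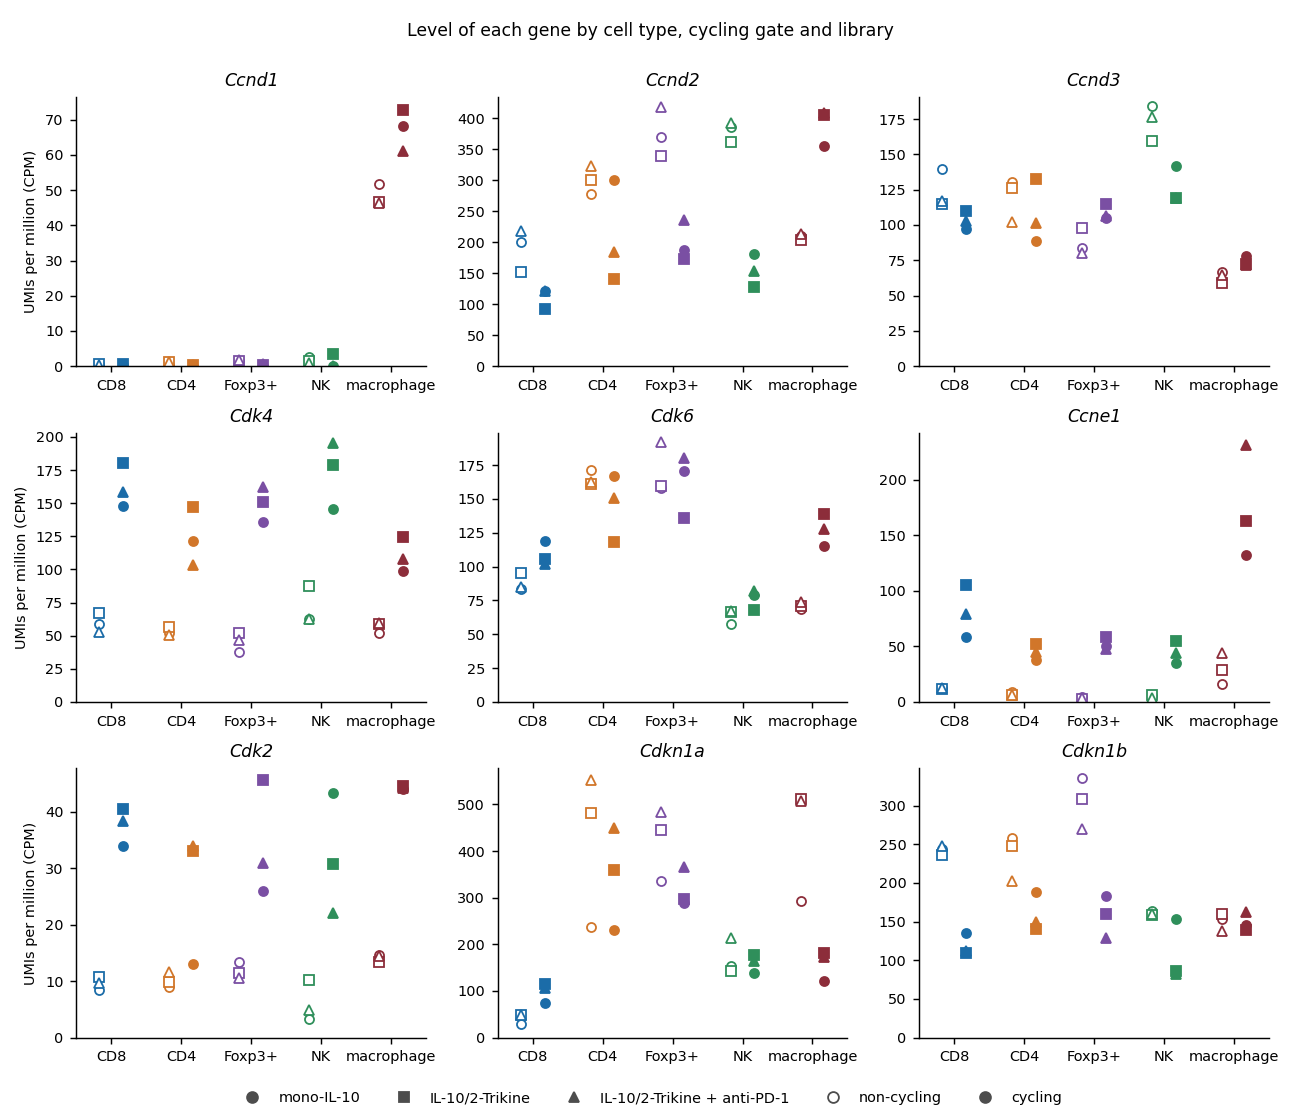
Level of each of the 9 genes in CPM (vertical axes, from 0) in 5 cell types, with open symbols for non-cycling and filled symbols for cycling cells, and a circle, square or triangle for each library. Ccnd1 lies between 46.2 and 72.8 CPM in macrophages and at most 3.56 CPM elsewhere, and the filled Cdk4 and Ccne1 symbols lie above the open symbols of the same cell type in every panel position.

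Cycling cells were compared with non-cycling cells of the same type to ask which of the 9 genes go with Mki67 and Top2a. Dividing cells below the cut, as cells in G1 may be, count as non-cycling, so non-cycling does not mean resting. In the non-cycling gates the 22 S phase genes summed to 443 to 772 CPM. Ccne1, Cdk2 and Cdk4 were higher in cycling cells of all 5 types, Ccnd2 fell in the 4 lymphocyte types and rose in macrophages, and Cdkn1b fell in the 4 lymphocyte types. Cdkn1a rose in cycling CD8 cells and fell in cycling macrophages and Foxp3-positive cells. The 3 libraries served as replicates, with library as a term in edgeR's quasi-likelihood test on summed UMIs and Benjamini-Hochberg adjustment over all genes. Each p and SE rests on the spread of the difference over 3 libraries that also differ in treatment. The fit draws that spread toward the spread of other genes, so neither reflects the libraries of that gene alone. In CD8 cells 7 of the 8 members tested passed an adjusted p of 0.05, where 63.6% of all genes did. The count was 5 of 8 in CD4 cells against 32.2% of genes, 7 of 8 in Foxp3-positive cells against 44.7%, 6 of 8 in NK cells against 41.4% and 7 of 9 in macrophages against 47.2%. Ccnd1 had too few UMIs to be tested in the lymphocyte types. Without the NK cluster led by T cell receptor genes, an alternative added after seeing the data, 6 of 8 members passed in NK cells, where 37.4% of genes did, with changes of -1.25 for Ccnd2, 3.13 for Ccne1 and -0.64 for Cdkn1b. With the 2 unnamed clusters counted as T cells, 5 of the 8 members other than Ccnd1 passed in CD4 cells, where 54.6% of genes did, with Ccnd2 at -1.01, Cdkn1b at -0.998, Cdk4 at 1.76, Ccne1 at 3.22 and Cdk2 at 1.95.

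Ccnd2, the cyclin D most used by lymphocytes, stood at 201, 152 and 218 CPM in non-cycling CD8 cells of the mono-IL-10, IL-10/2-Trikine and combination libraries and at 122, 92.9 and 122 CPM in cycling CD8 cells. Every non-cycling value lay above every cycling value, and the fitted change was a log2 fold change of -0.64 ± 0.06 (SE, 3 libraries; edgeR adjusted p = 2.16e-10). In NK cells the levels were 386, 362 and 392 CPM without cycling and 181, 127 and 153 CPM with it. That fall, -1.32 ± 0.12 (edgeR adjusted p = 4.02e-14), had the largest fitted size of the 4 lymphocyte types. Its difference from the CD8 fall, given below, lost its call in 5 of 15 alternatives. Differences from CD4 and Foxp3-positive cells were not tested. In macrophages the order was opposite, with 210, 204 and 214 CPM in non-cycling and 356, 405 and 408 CPM in cycling cells. The groups did not overlap and the change was 0.77 ± 0.06 (edgeR adjusted p = 2.7e-07), and 0.31 with barcodes that carried both T cell and macrophage UMIs kept. Barcodes of 1 to 100 UMIs, taken as empty droplets, held 191, 129 and 167 CPM of Ccnd2. In CD8 and NK cells the cycling levels lay below the droplets of the same library and the non-cycling levels above them. The part of free RNA was not tested. In Foxp3-positive cells Ccnd2 fell by 0.81 on the log2 scale. In CD4 cells it fell by 0.57, but the call rested on the libraries. Cycling CD4 cells of the mono-IL-10 library held 300 CPM, inside the range of non-cycling cells. Without the combination library the change was -0.46 and did not pass, nor did it by DESeq2 (-0.55) or with no library term (-0.52). The change was -0.87 without the mono-IL-10 library and -0.35 without the IL-10/2-Trikine library.

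Ccnd1, the cyclin D of many adherent and myeloid cells, was at 51.6, 46.5 and 46.2 CPM in non-cycling and 68.1, 72.8 and 61.1 CPM in cycling macrophages. Every cycling value was the higher, and the change of 0.35 ± 0.07 passed (edgeR adjusted p = 0.00168), but it was 0.01 with cells thinned to 1000 UMIs, 0.15 with a cycling gate from 5 UMIs and -0.29 with mixed barcodes kept. Ccnd3, the third D-type cyclin, passed in Foxp3-positive cells, where it rose by 0.42 ± 0.10 (edgeR adjusted p = 0.00169), and in NK cells, where it fell by 0.42 ± 0.13 (edgeR adjusted p = 0.00614). The Foxp3-positive call was lost in 4 of 18 alternatives, at 0.23 (cycling gate from 1 UMI) to 0.56 (strictest non-cycling gate), and the NK call in 3 of 20, at -0.46 to -0.27. Both were lost without the combination library and with the gate from 1 UMI, and the NK call also without the IL-10/2-Trikine library. In CD8, CD4 and macrophage cells its changes were -0.14, -0.03 and 0.10 and did not pass, although the CD8 value passed in 8 of 18 alternatives, at -0.33 to -0.16, and the macrophage value in 2 of 18, at 0.21 and 0.22.

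Cdk4, a kinase partner of the D-type cyclins, was at 59.2, 66.7 and 52.9 CPM in non-cycling CD8 cells and at 148, 180 and 158 CPM in cycling CD8 cells. Its change was 1.56 ± 0.07 in CD8, 1.27 ± 0.10 in CD4, 1.79 ± 0.11 in Foxp3-positive and 1.35 ± 0.13 in NK cells, and 0.82 ± 0.07 in macrophages. In each type all 3 cycling values lay above all 3 non-cycling values. Cdk6, the other partner, moved less: it rose in macrophages, from 68.4, 71.2 and 73.5 CPM to 116, 139 and 128 CPM (0.71 ± 0.06, edgeR adjusted p = 1.2e-06). In CD8 cells Cdk6 rose by 0.42 ± 0.07 (edgeR adjusted p = 5.15e-06), a change of 0.00 once cells were thinned to 1000 UMIs. Its changes of -0.14 in CD4, -0.01 in Foxp3-positive and 0.25 in NK cells did not pass, although the NK value did in 2 of 20 alternatives, at 0.39 with gates built on markers alone and 0.47 with every NK cell-like cell. The CD4 value passed in 1 of 18, with the opposite sign, at 0.24 with gates built on markers alone.

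Ccne1, the E-type cyclin switched on by E2F, had the largest change among the members in all 5 types. In CD8 cells it was at 12.7, 11.5 and 13.0 CPM without cycling and 58.7, 105 and 79.3 CPM with it, and in Foxp3-positive cells it went from 4.04, 2.88 and 3.26 CPM, which rest on 3, 6 and 8 UMIs, to 50.3, 58.3 and 48.0 CPM. The fitted changes were 2.78 ± 0.11 in CD8, 2.77 ± 0.20 in CD4, 4.09 ± 0.25 in Foxp3-positive and 3.25 ± 0.26 in NK cells. Macrophages had the smallest change, 2.5 ± 0.11, and the highest levels: 16.5, 29.0 and 44.5 CPM in non-cycling and 132, 163 and 231 CPM in cycling cells. The higher level depends on the clustering. Among non-cycling cells the log2 difference from lymphocytes was 2.28, but 0.39 and not called at a finer clustering. Barcodes of 1 to 100 UMIs, taken as empty droplets, held 37.9, 56.1 and 50.2 CPM of Ccne1 in the 3 libraries. Non-cycling levels lay below this in every type and library, far below it in the lymphocytes and closest in macrophages of the combination, and the part of free RNA was not tested.

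Cdk2, the kinase bound by cyclin E, rose from 8.42, 10.7 and 9.74 CPM to 33.9, 40.5 and 38.4 CPM in CD8 cells (2.08 ± 0.11, edgeR adjusted p = 2.38e-17). In macrophages it rose from 14.7, 13.4 and 14.5 CPM to 44.0, 44.7 and 44.3 CPM (1.51 ± 0.09, edgeR adjusted p = 2.86e-08). In both types every cycling value was the higher. The empty droplets held 23.5, 29.9 and 22.1 CPM, between the non-cycling and the cycling levels of both types, and the part of free RNA was not tested. In CD4, Foxp3-positive and NK cells the changes were 1.54 ± 0.20, 1.75 ± 0.22 and 2.16 ± 0.31. The Cdk2 call was lost in CD4 cells thinned to 1000 UMIs, at 1.02, and in Foxp3-positive cells when non-cycling cells had no UMI of Mki67, Top2a or the S phase genes, at 1.39.

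The promoters of these 3 genes are shown because Ccne1, Cdk2 and Cdk4 rose with cycling in every cell type. Each window runs from 250 bases before to 50 bases after the transcription start and comes from RefSeq on GRCm38.p6, with Ccne1 at chr7:38107441-38107740 on the minus strand, Cdk2 at chr10:128705002-128705301 on the minus strand and Cdk4 at chr10:127063285-127063584 on the plus strand. The windows were searched on both strands for 4 E2F-type motifs, TTTCGCGC, TTTGGCGC, TTTCCCGC and TTTGCCGC, and a match is in capitals.
Ccne1: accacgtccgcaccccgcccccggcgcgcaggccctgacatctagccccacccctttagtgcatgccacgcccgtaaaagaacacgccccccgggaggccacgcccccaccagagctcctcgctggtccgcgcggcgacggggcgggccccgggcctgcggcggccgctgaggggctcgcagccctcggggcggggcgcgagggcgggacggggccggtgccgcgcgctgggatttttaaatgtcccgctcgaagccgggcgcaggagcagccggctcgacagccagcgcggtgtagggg
Cdk2: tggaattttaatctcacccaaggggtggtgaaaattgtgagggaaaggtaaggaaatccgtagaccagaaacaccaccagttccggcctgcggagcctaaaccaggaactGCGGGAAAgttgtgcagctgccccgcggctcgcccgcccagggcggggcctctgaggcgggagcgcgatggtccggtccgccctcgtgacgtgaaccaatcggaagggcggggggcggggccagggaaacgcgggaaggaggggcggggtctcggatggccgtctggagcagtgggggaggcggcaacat
Cdk4: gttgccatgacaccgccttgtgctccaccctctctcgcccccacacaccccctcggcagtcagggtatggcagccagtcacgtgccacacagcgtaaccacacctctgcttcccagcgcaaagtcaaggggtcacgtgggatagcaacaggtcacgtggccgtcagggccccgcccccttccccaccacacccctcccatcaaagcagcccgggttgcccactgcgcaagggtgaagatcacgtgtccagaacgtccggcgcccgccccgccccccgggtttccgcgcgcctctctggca
The Cdk2 window holds 1 match, read here as the reverse complement GCGGGAAA, which starts 140 bases before the start site. Among all 32851 windows in the table, 2.26% hold at least 1 of the 4 motifs, and among the 9 windows of 7 matched members only that of Cdk2 does. A match is a description of letters in this window, and these motifs are only some of the forms that E2F factors are known to bind. Ccnd1 and Ccnd2 were not among the matched members.

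**Figure D2:**
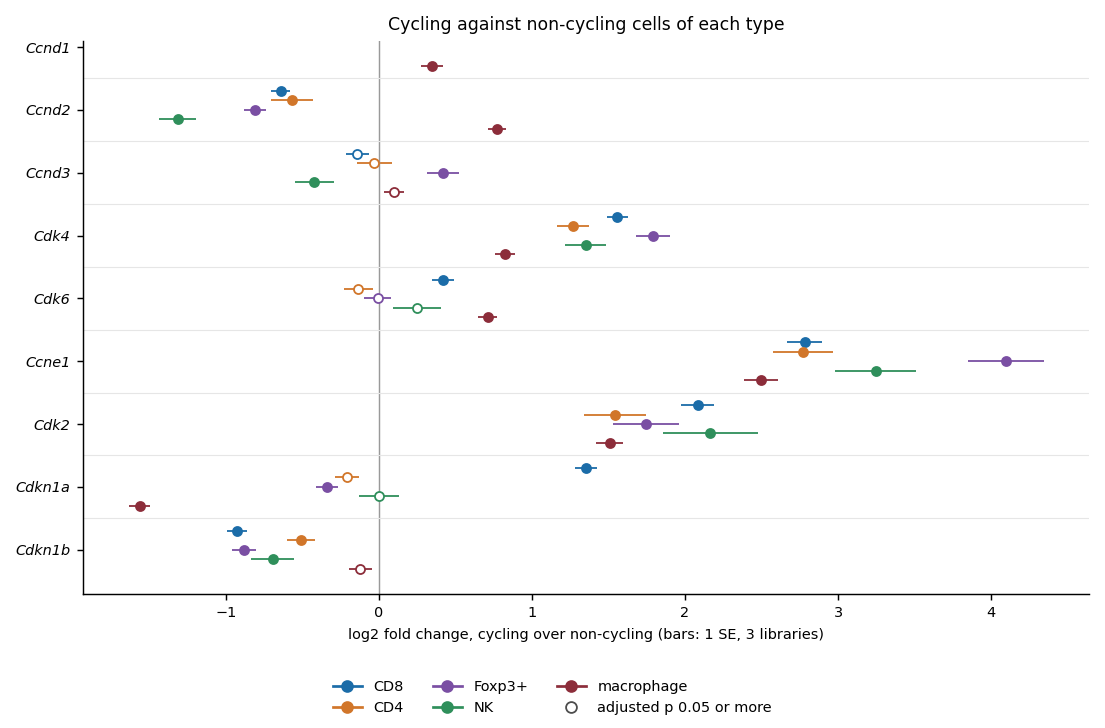
Log2 fold change of each gene in cycling over non-cycling cells (horizontal axis) for 5 cell types, with bars of 1 SE over 3 libraries and open circles where the edgeR adjusted p was 0.05 or more. Ccne1, Cdk2 and Cdk4 lie right of 0 in all 5 types, and Cdkn1a runs from -1.56 in macrophages to 1.35 in CD8 cells.

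Cdkn1a, the p21 inhibitor, differed most between cell types in how it went with cycling. In CD8 cells it was at 28.9, 48.8 and 48.7 CPM without cycling and 74.7, 114 and 107 CPM with it, so that every cycling value was the higher (1.35 ± 0.07, edgeR adjusted p = 1.22e-16). The empty droplets held 110.2, 186 and 208 CPM of Cdkn1a, so both CD8 levels lay below the droplets of the same library, and the part of free RNA in them was not tested. Over the alternative settings this rise ranged from 0.48, with gates built on markers alone, to 1.59. In macrophages the levels were 293, 512 and 507 CPM in non-cycling and 121, 181 and 172 CPM in cycling cells. No values overlapped there, and Cdkn1a fell by 1.56 ± 0.07 (edgeR adjusted p = 2.67e-09). In Foxp3-positive cells it fell by 0.34 ± 0.07 (edgeR adjusted p = 0.000334), a call lost in 4 of 18 alternatives, at -0.38 to -0.25, among them the fit without the IL-10/2-Trikine library. CD4 cells gave -0.21 ± 0.08 (edgeR adjusted p = 0.0543), which passed in 6 of 18 alternatives, at -0.28 to -0.21, among them DESeq2 and the fit without the mono-IL-10 library. NK cells gave 0.00 ± 0.13, which passed in 1 of 20 alternatives, at -0.45 with gates built on markers alone.

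Cdkn1b, the p27 inhibitor of resting cells, was at 244, 237 and 248 CPM in non-cycling CD8 cells and 135, 109 and 112 CPM in cycling CD8 cells. The levels did not overlap, and the change was -0.93 ± 0.07 (edgeR adjusted p = 8.69e-14). In Foxp3-positive cells it went from 336, 309 and 269 CPM to 183, 160 and 128 CPM (-0.88 ± 0.08, edgeR adjusted p = 5.68e-10). CD4 and NK cells gave -0.51 ± 0.09 and -0.69 ± 0.14, and the NK call was lost at -0.58 without the IL-10/2-Trikine library and at -0.69 with thinned cells. NK levels were 158 to 164 CPM in non-cycling and 153, 86.6 and 82.6 CPM in cycling cells. The mono-IL-10 library, with 28 cycling NK cells, thus showed little fall. In macrophages Cdkn1b was at 153, 160 and 138 CPM and at 145, 140 and 162 CPM, overlapping levels with a change of -0.12 ± 0.07 that did not pass, although it did in 4 of 18 alternatives, at -0.34 (strictest non-cycling gate) to -0.18, among them the fit without the combination library.

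Because these changes had different signs in different types, the difference between types was itself tested in a joint fit of all 30 sums, a comparison chosen after the changes of each type were seen. Ccnd1 is left out of these counts: it passed the filter on low counts only through macrophages, and its lymphocyte sums held 0 to 14 UMIs. Macrophages differed from the mean of the 4 lymphocyte types for 7 of the 8 other members, where 37.8% of genes passed. The differences were largest for Cdkn1a, at -1.84 ± 0.10 (edgeR adjusted p = 3.02e-15), and for Ccnd2, at 1.54 ± 0.12 (edgeR adjusted p = 3.99e-12). These and the Cdk4 and Cdkn1b differences passed under every alternative run for the joint fit. The Cdk6 difference of 0.51 was lost with gates built on markers alone (0.17) and at a finer clustering (0.14), Ccne1 (-0.80) at the finer clustering (-0.57), with a cycling gate from 1 UMI (-0.62) and with the strictest non-cycling gate (-1.72), and Cdk2 (-0.44) with the gate from 1 UMI (-0.31), thinned cells (-0.75) and the strictest gate (-0.01). CD8 and CD4 cells differed for 3 of 8 members against 6.61% of genes: Cdkn1a by 1.51 ± 0.13, Cdk6 by 0.50 ± 0.13 and Cdkn1b by -0.47 ± 0.13. With gates built on markers alone all 3 calls were lost, at 0.70, 0.23 and -0.02. The Cdk6 and Cdkn1b calls were also lost with thinned cells (-0.01 and -0.31), with the strictest non-cycling gate (0.42 and -0.43) and with the unnamed clusters counted as T cells (0.34 and 0.00), and Cdkn1b was at 0.05 at a finer clustering. NK and CD8 cells differed for Cdkn1a, by -1.35 ± 0.15, and for Ccnd2, by -0.69 ± 0.17, against 2.51% of genes. The Ccnd2 difference was -0.14 and not called with a cycling gate from 1 UMI, and its call was also lost with thinned cells (-0.80) and gates built on markers alone (-0.69). Between Foxp3-positive and CD4 cells 0 of 8 members passed edgeR's adjusted test, against 0.596% of genes. Of the members, 4 had an unadjusted edgeR p under 0.05, as did 1410 of 12751 genes. Over the 4 contrasts 12 differences passed, and 7 did so without the combination library. Without it the calls of Ccne1 and Cdk2 between macrophages and lymphocytes, of Cdk6 and Cdkn1b between CD8 and CD4 cells, and of Ccnd2 between NK and CD8 cells were lost. The Cdk2 difference was also lost without the IL-10/2-Trikine library (-0.46). Without that library the Cdk6 difference between CD8 and CD4 cells (0.42) and the Ccnd2 difference between NK and CD8 cells (-0.54) did not pass.

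Other genes of the pathway were taken from lists written by hand. Cells were split on Mki67 and Top2a, so the gate itself favors genes expressed with them, and rises of such genes describe the gate. Of 13 genes of the Rb family and E2F, 11 rose and 1 fell in cycling CD8 cells, with a median log2 fold change of 1.58 where all genes tested had a median of -0.01, and 12 rose in macrophages. Of 9 other cyclins and CDKs, 7 rose in each of the 5 types. Among all genes tested, 33.3% rose in CD8, 18.1% in CD4, 24.2% in Foxp3-positive and 22.1% in NK cells and 23.4% in macrophages. Among the other inhibitors, Cdkn2c (p18) rose by 2.09 ± 0.08 in CD8 cells and 2.69 ± 0.09 in macrophages, and Cdkn2d (p19) rose by 0.98 ± 0.08 and 1.46 ± 0.08. Cdkn2a (p16 and p19ARF) rose in all 5 types, by 0.60 ± 0.13 in CD4 to 2.62 ± 0.61 in NK cells, whereas Cdkn2b (p15) fell in CD8 cells (-0.92 ± 0.34). Cdkn1c (p57) was tested in macrophages only, where it rose by 1.22 ± 0.25 from at most 2.19 CPM. Ccne2, the second E-type cyclin, rose in all 5 types, by 2.61 ± 0.23 in CD4 to 3.75 ± 0.16 in macrophages. Unlike Ccne1, it stood no higher in cycling macrophages (35.7, 47.1 and 40.0 CPM) than in cycling CD8 cells (38.2, 78.0 and 64.4 CPM).

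The largest rises on these lists were in genes of mitosis and of E2F: Cdc25c (5.82 ± 0.24), Ccna2 (5.81 ± 0.09) and Cdk1 (5.40 ± 0.09) in CD8 cells, Ccna2, Cdk1 and E2f8 in CD4 cells, E2f8, E2f7 and Cdk1 in Foxp3-positive cells, Ccna2, E2f7 and Cdk1 in NK cells and E2f7, Fbxo5 and Ccnb1 in macrophages. The steepest falls in CD8 cells were Btg1, an antiproliferative gene, at -1.70 ± 0.06, Il7r, the IL-7 receptor, at -1.59 ± 0.07, and Trp53inp1 at -1.34 ± 0.08. Btg1, Il7r and Trp53inp1 also led the falls in Foxp3-positive cells, Il7r, Btg1 and Zmat3 in CD4 cells, and Btg1, Zmat3 and Trp53inp1 in NK cells. In macrophages they were Klf4 (-1.66 ± 0.07), Btg2 (-1.30 ± 0.06) and Bbc3 (-0.81 ± 0.18). Of 13 other p53 targets, read beside Cdkn1a, 12 were tested in CD8 cells, where 2 rose and 5 fell, and 12 in macrophages, where 3 rose and 3 fell. Among all genes tested 30.3% fell in CD8 cells and 23.8% in macrophages. Of 8 Foxo and quiescence genes, read beside Cdkn1b, 6 fell and 0 rose in CD8 cells (edgeR, with 8 at an unadjusted p under 0.05, as 8089 of 12175 genes were), and 4 fell and 1 rose in macrophages. All 22 S phase genes rose in every type, which describes the gate, as genes expressed with Mki67 and Top2a are favored by the split.

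Cell types were next compared among non-cycling cells, to ask how the 9 genes differ between types outside the cycling gate. Ccnd1 was at 51.6, 46.5 and 46.2 CPM in macrophages and at 0.244 to 2.5 CPM in the lymphocyte gates, below the 19.0, 12.2 and 11.4 CPM of the empty droplets, so with 1 to 14 UMIs per sum no level is read from them. Levels below the droplets were not particular to Ccnd1: non-cycling Ccne1 and Cdk2 lay below them too, as did Cdkn1a in CD8 cells. Cdkn1a had the widest range among lymphocytes: 28.9 to 48.8 CPM in CD8, 143 to 214 CPM in NK, 336 to 484 CPM in Foxp3-positive and 238 to 551 CPM in CD4 cells, while macrophages held 293 to 512 CPM. The last 3 overlapped, and NK and CD8 cells were each apart from them and from one another. Macrophages differed from the mean of the lymphocytes for 7 of the 8 members other than Ccnd1, where 78.2% of genes passed. Ccnd1 is not counted and no fold is given for it, here and between lymphocyte types, because it passed the filter on low counts through macrophages and its lymphocyte sums held 1 to 14 UMIs. The differences were 2.28 ± 0.20 for Ccne1, 1.21 ± 0.10 for Cdkn1a and 0.67 ± 0.15 for Cdk2, and lower levels were found for Ccnd3 (-0.94 ± 0.08), Cdk6 (-0.65 ± 0.07), Cdkn1b (-0.61 ± 0.07) and Ccnd2 (-0.51 ± 0.07). Cdk4 gave 0.01 ± 0.07 and overlapped between neighbours in the order of all 5 types. The Ccne1 difference moved to 0.39 and did not pass at a finer clustering, and Cdk2 gave 0.20 with the strictest non-cycling gate. Both genes lay below the droplets on both sides of this comparison and held as few as 3 (Ccne1) and 8 UMIs (Cdk2) in a lymphocyte sum, and the part of free RNA in their differences was not tested.

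CD8 cells differed from CD4 cells for 4 of 8 members, against 24.4% of genes. Cdkn1a was lower by a log2 fold change of -3.25 ± 0.16 (edgeR adjusted p = 2.95e-10), with a range over the alternative settings of -3.41 to -2.29. The CD8 levels lay below the empty droplets and the CD4 levels above them in every library. Cdk6 (-0.86 ± 0.09) and Ccnd2 (-0.62 ± 0.09) were also lower in CD8 cells, and Ccne1 was higher (0.92 ± 0.29), a call lost in 5 of 16 alternatives, at 0.69 to 0.93, among them DESeq2 and the fits without the IL-10/2-Trikine or the combination library. Cdk6 was at 83.7, 94.9 and 85.2 CPM in CD8 and 171, 161 and 162 CPM in CD4 cells.

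NK cells differed from CD8 cells for 7 of 8 members, against 38.0% of genes. Cdkn1a (2.05 ± 0.16), Ccnd2 (1.02 ± 0.09) and Ccnd3 (0.50 ± 0.10) were higher in NK cells, and Ccne1 (-1.37 ± 0.36), Cdkn1b (-0.59 ± 0.09) and Cdk6 (-0.45 ± 0.10) were lower. For Cdkn1a the CD8 levels lay below the empty droplets in every library, as did the NK level in the IL-10/2-Trikine library. The Cdk6 call was lost with the strictest non-cycling gate (-0.35) and with thinned cells (-0.32), and the Ccnd3 call with gates built on markers alone (0.31). Cdk4 (0.25 ± 0.10) passed too, but its call was lost in 14 of 19 alternatives, among them leaving out any 1 of the 3 libraries. Cdk2 gave -0.61 ± 0.25 and passed in 3 of 19, at -1.03 without the IL-10/2-Trikine library to -0.65. Without the NK cluster led by T cell receptor genes the Cdk4 call was lost and the other 6 passed, where 38.0% of genes did, at 2.07 for Cdkn1a, 1.04 for Ccnd2 and -1.36 for Ccne1. With every NK cell-like cell in the gate, Cd3 UMIs or not, 6 of 8 members passed, where 30.7% of genes did, and Ccne1 did not, at -0.68. Foxp3-positive cells differed from CD4 cells for 3 of 8 members, against 11.5% of genes, with Cdkn1b higher (0.36 ± 0.09), Ccnd2 higher (0.32 ± 0.10) and Ccnd3 lower (-0.41 ± 0.12). These calls were not stable: of 17 alternatives the Ccnd2 call was lost in 11, the Ccnd3 call in 9 and the Cdkn1b call in 3, and without the IL-10/2-Trikine or the combination library 0 were left.

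**Figure D3:**
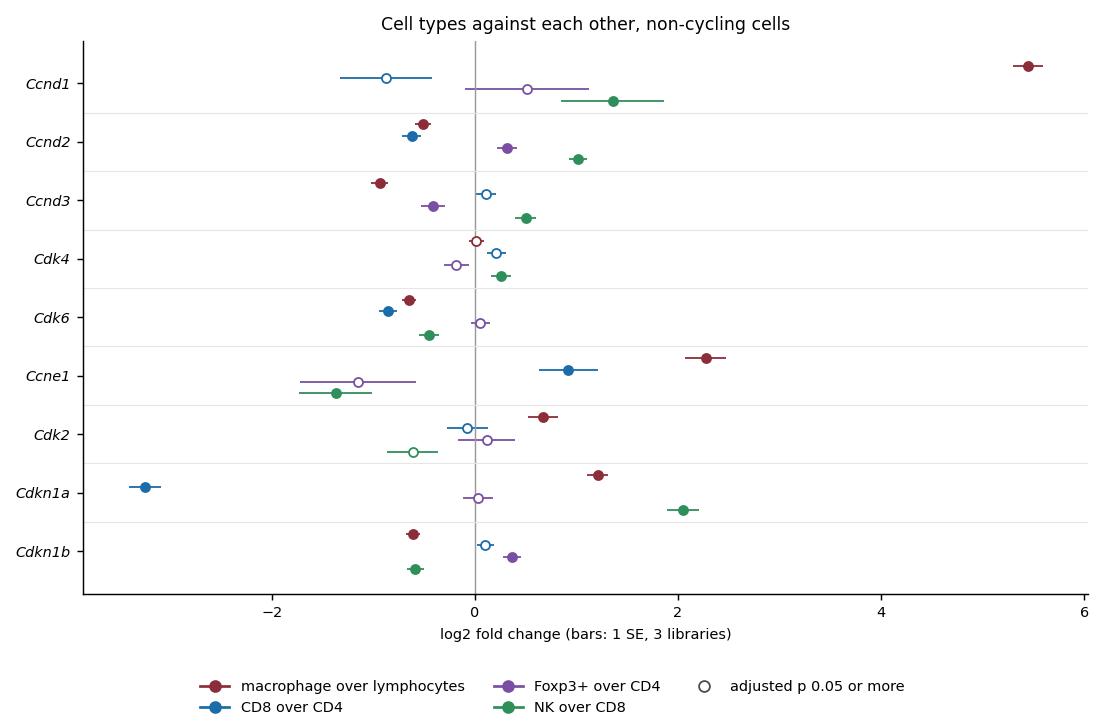
Log2 fold change of each gene between pairs of cell types among non-cycling cells (horizontal axis), with bars of 1 SE over 3 libraries and open circles where the edgeR adjusted p was 0.05 or more. Cdkn1a in CD8 against CD4 cells lies at -3.25, and the place of the Ccnd1 points is not read because lymphocyte Ccnd1 lay below the empty droplets.

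The IL-10/2-Trikine was compared with mono-IL-10 to ask what adding the IL-2 receptor chain does to these genes. With 1 library per group there is no test. The 95% interval printed after a CPM ratio is an exact conditional binomial one and covers counting error only. CD8 cells before the cycling split had more Cdk4 (92.6 to 141 CPM), Ccne1 (30.1 to 72.9 CPM), Cdk2 (18.0 to 30.2 CPM) and Cdkn1a (46.2 to 91.6 CPM) and less Ccnd2 (171 to 113 CPM) and Cdkn1b (203 to 153 CPM) in the IL-10/2-Trikine library. The share of CD8 cells in the cycling gate differed in the same direction, from 17.6% to 36.7%, and was 16.8% in the combination. Of the genes that set this gate, the empty droplets held 334, 456 and 267 CPM (Mki67) and 358, 547 and 364 CPM (Top2a) in the 3 libraries. The part of free RNA in the cycling share was not tested. Within the gates the Cdk4 ratio was 1.22 in cycling (148 to 180 CPM) and 1.13 in non-cycling cells (59.2 to 66.7 CPM), against 1.52 (1.44 to 1.61) unsplit. Ccne1 was 2.42 times higher unsplit, 1.79 times (1.62 to 1.98) in cycling cells and 0.904 times (0.704 to 1.16) in non-cycling cells. Within the cycling CD8 gate the S phase genes summed to 3361 CPM with mono-IL-10 and 3995 CPM with the IL-10/2-Trikine. How far this enters the ratios of cycling cells was not tested. For Cdkn1a the ratio was 1.98 unsplit and stayed at 1.53 (1.39 to 1.68) in cycling and 1.69 (1.47 to 1.94) in non-cycling CD8 cells, although it was 1.18 with the strictest non-cycling gate. The CD8 levels lay below those of the empty droplets, which themselves went from 110.2 to 186 CPM, and the part of free RNA in these ratios was not tested. For Ccnd2 and Cdkn1b the empty droplets went down between these libraries, from 191 to 129 CPM and from 163 to 140 CPM. The unsplit CD8 levels of Ccnd2 lay below the droplets of the same library, and the part of free RNA in these falls was not tested.

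**Figure D4:**
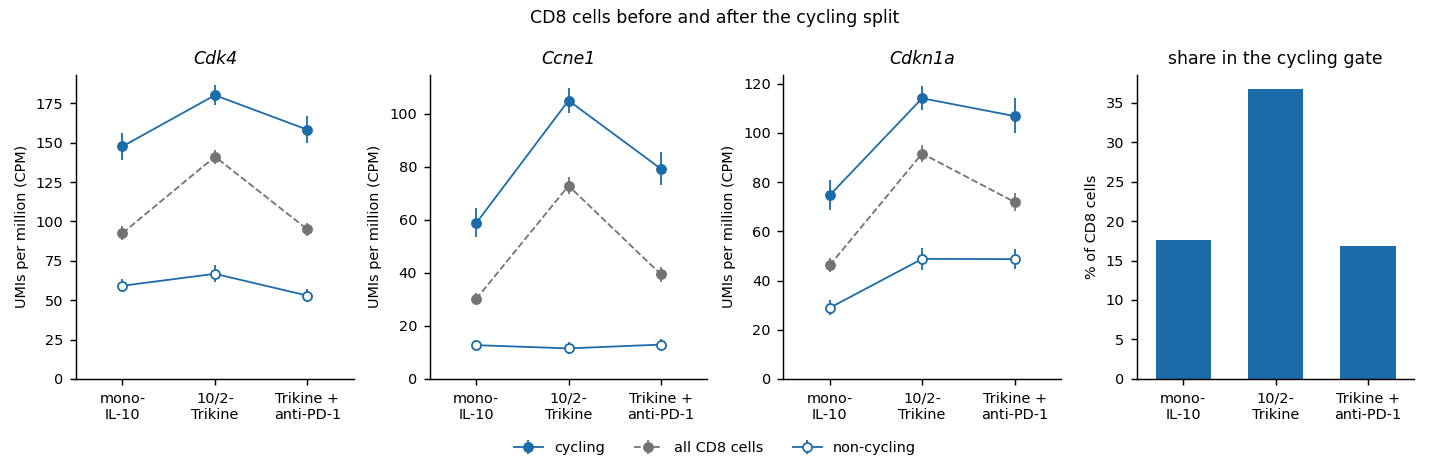
Levels of Cdk4, Ccne1 and Cdkn1a in CPM (vertical axes, from 0) in cycling, non-cycling and all CD8 cells of the 3 libraries, with 95% Poisson intervals, and the percent of CD8 cells in the cycling gate as bars. Non-cycling Ccne1 stays between 11.5 and 13.0 CPM while the value for all CD8 cells goes from 30.1 to 72.9 and 39.4 CPM and the cycling share from 17.6% to 36.7% and 16.8%.

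Over the 10 gates, 81 pairs of a member and a gate had at least 20 UMIs, and 14 of them (17.3%, or 25 pairs with gates built on markers alone) lay past 1.5-fold, 12 higher and 2 lower in the IL-10/2-Trikine library, against 18.1% of all genes past that fold either way (7.54% higher and 10.5% lower). The 12 higher pairs held 6 of Cdkn1a, 3 of Ccne1 and 3 of Cdk2. In non-cycling CD4 cells Cdkn1a went from 238 to 481 CPM, a ratio of 2.02 (1.88 to 2.18) that ranged from 2.02 to 2.73 over the settings. In non-cycling macrophages it went from 293 to 512 CPM, a ratio of 1.75 (1.68 to 1.81). Ratios were 1.57 in cycling CD4 cells, 1.5 (at the threshold) in cycling macrophages and 1.33 in non-cycling Foxp3-positive cells. The intervals held 1 in cycling Foxp3-positive cells (1.03, 0.881 to 1.22), cycling NK cells (1.29, 0.905 to 1.88) and non-cycling NK cells, with 153 and 143 CPM (0.933, 0.813 to 1.07). Cdkn1a in the empty droplets was 110.2, 186 and 208 CPM in the 3 libraries, and neutrophil-like cells, with a level above that of every gate, held 857 to 1006 CPM. The 10 neutrophil markers summed to 99.7, 105 and 66.2 CPM in non-cycling CD4 cells, with Cxcr2 or Retnlg at 0, and to 506, 624 and 378 CPM in non-cycling macrophages. The part of free RNA in the Cdkn1a ratios was not tested.

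The Ccne1 ratios past 1.5 were those of cycling CD8 cells (above), cycling NK cells, with 9 and 92 UMIs and a ratio of 1.54 (0.777 to 3.48), and non-cycling macrophages, at 16.5 and 29.0 CPM with a ratio of 1.76 (1.5 to 2.06). The macrophage ratio turned to a log2 value of -0.31 at a finer clustering. Cdk2 was past 1.5 in cycling CD4 cells (10 and 69 UMIs, ratio 2.53), cycling Foxp3-positive cells (17 and 122 UMIs, ratio 1.76) and non-cycling NK cells (8 and 34 UMIs, ratio 3.05, 1.38 to 7.62). The 22 S phase genes also went up in non-cycling NK cells, from 478 to 772 CPM. The 2 lower pairs were Ccnd2 in cycling CD4 cells, from 300 to 141 CPM (ratio 0.468, 0.392 to 0.558), and Cdkn1b in cycling NK cells, from 153 to 86.6 CPM (ratio 0.564, 0.394 to 0.825), where the mono-IL-10 library held only 28 cells. Cycling gates also differed between these 2 libraries. Their 22 S phase genes summed to 2151 and 3145 CPM in CD4, 3361 and 3995 CPM in CD8 and 2782 and 3584 CPM in NK cells. Sums were 3198 and 3484 CPM in Foxp3-positive cells and 2334 and 2742 CPM in macrophages, with mono-IL-10 first each time. How far this enters the ratios of cycling cells was not tested. Without the barcodes called by Scrublet the log2 ratios in cycling CD4 cells were -1.05 for Ccnd2 and 1.52 for Cdk2, and 0.85 for Cdk2 in cycling Foxp3-positive cells. Cdk4 was higher in all 10 gates, with ratios of 1.08 to 1.41 and 5 intervals above 1. All 10 gates come from the same 2 libraries and are not replicates of each other, and intervals above 1 were not counted for all genes. The empty droplets went the same way, from 94.6 to 149 CPM of Cdk4, and every non-cycling Cdk4 level lay below that of its library's droplets. The part of free RNA in these ratios was not tested. Ccnd3 and Cdk6 had no ratio past 1.5, running from 0.822 to 1.49 and from 0.709 to 1.20.

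**Figure D5:**
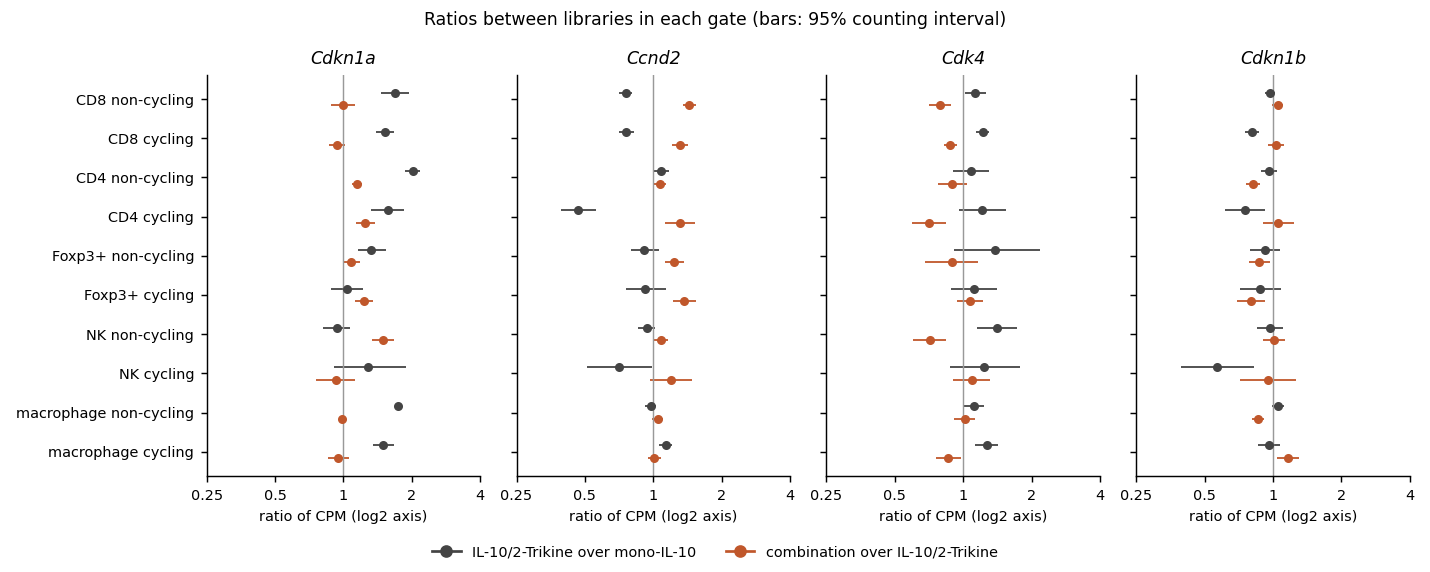
Ratio of CPM between libraries (horizontal axes, log2 scale) for 4 members in the 10 gates, with 95% counting intervals. Dark points compare the IL-10/2-Trikine with mono-IL-10 and lie between 0.933 and 2.02 for Cdkn1a, and orange points compare the combination with the IL-10/2-Trikine and lie between 1.01 and 1.44 for Ccnd2.

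The combination was compared with the IL-10/2-Trikine to ask what anti-PD-1 adds, a comparison that uses the same IL-10/2-Trikine library as the one before. Of 82 pairs of a member and a gate, 3 (3.66%) lay past 1.5-fold, against 11.6% of all genes, with 1 higher (6.49% of genes were) and 2 lower (5.07%). The count was 6 with a cycling gate from 1 UMI and with at least 5 UMIs in the pair, 9 with gates built on markers alone and 11 with thinned cells. Ccne1 in non-cycling macrophages was the higher pair, going from 29.0 to 44.5 CPM (ratio 1.53, 1.34 to 1.77), and the difference was gone, with a log2 value of -0.02, in the strictest non-cycling gate. The 22 S phase genes summed to 443, 561 and 546 CPM in non-cycling macrophages of the 3 libraries. The 2 lower pairs were in non-cycling NK cells, with Cdk2 going from 34 to 23 UMIs (ratio 0.490, 0.276 to 0.856) and Ccne1 from 22 to 17 UMIs (ratio 0.560, 0.279 to 1.10). The Ccne1 ratio changed sign, to log2 values of 0.13 with the gate from 1 UMI, 1.84 in the strictest gate and 0.30 with thinned cells. In non-cycling NK cells the 22 S phase genes summed to 478, 772 and 527 CPM in the 3 libraries. Ccnd2 was higher in all 10 gates, with ratios of 1.01 to 1.44 and 7 intervals above 1, led by non-cycling CD8 cells (152 to 218 CPM). All 10 gates come from the same 2 libraries and are not replicates of each other. Intervals above 1 were not counted for all genes. The empty droplets held 191, 129 and 167 CPM of Ccnd2 in the 3 libraries and so were also higher in the combination than in the IL-10/2-Trikine library, and the part of free RNA was not tested. Non-cycling NK cells, where Cdkn1a was at 153 and 143 CPM in the other libraries, stood at 214 CPM with anti-PD-1, which is 1.49 times the IL-10/2-Trikine level (1.34 to 1.67). The empty droplets held 186 CPM of Cdkn1a in the IL-10/2-Trikine library, above the NK level, and 208 CPM in the combination, close to it. The part of free RNA in this ratio was not tested. In CD8 cells before the split Cdk4 went back from 141 to 94.98 CPM and Ccne1 from 72.9 to 39.4 CPM, beside the lower cycling share.

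Likeness to other genes was measured as Pearson's r of log2(CPM + 1) over the 30 sums of 3 libraries, 5 cell types and 2 cycling gates, among 5806 genes, as a description of sums that share libraries and depth. Pa2g4 (r = 0.982) and Ranbp1 (0.980) were nearest to Cdk4, and Tk1, thymidine kinase, and Slc43a3 to Cdk2 (both 0.946). Chek2 (0.958) and Agfg2 (0.954) were nearest to Ccne1. Ftl1, the ferritin light chain, and Fnbp1l were nearest to Ccnd1 (0.974 and 0.972). Lymphocyte Ccnd1 lay below the empty droplets, so these 2 values mainly restate the split between macrophages and lymphocytes. Nrarp (0.902) and Vezf1 (0.886) were nearest to Ccnd3, H2-K1 (0.904) and Fbxl17 (0.863) to Ccnd2, and Lclat1 (0.890) and Dusp4 (0.881) to Cdk6. N4bp2l1 (0.942) and Rnf114 (0.914) were nearest to Cdkn1b. Cdkn1a had the least close neighbours, Ahr, the aryl hydrocarbon receptor, at 0.882 and Chmp2a at 0.825.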

How the data were processed

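Droplet 3′ single-cell RNA sequencing of live CD45+ cells from KP1 tumors gave 3 libraries. The authors deposited unfiltered UMI counts per gene and barcode from Cell Ranger, version 8.0.0 in the file headers. The methods name another version and GRCm39, while the labels give mm10, so no coordinates were read from the files. A barcode had to show 200 or more genes and no more than 20% mitochondrial UMIs. The methods state these limits too, with fewer cells than they left here.

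Cells of all libraries were scaled to 10000 UMIs, log transformed and clustered with scanpy 1.11.5 (2000 variable genes without the 9 members and cell cycle genes, 30 components, Leiden resolution 1). Marker lists for 16 classes gave a name to 20 of the 26 clusters. CD8, CD4 and Foxp3-positive cells came from T cell-like clusters by UMIs of Cd8a and Cd8b1, Cd4 and Foxp3, NK cells from NK cell-like clusters without Cd3 UMIs, and macrophages from macrophage-like or monocyte-like clusters with at least 3 UMIs of C1qa, C1qb and C1qc. Barcodes with 3 or more UMIs of the other lineage's C1q or Cd3 genes were left out. No doublet call was used in the gates, and leaving out doublet calls was an alternative.

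UMIs were summed per library and gate and tested with edgeR 4.0.16 (R 4.3.3), with library as a term and a threshold of 0.05 over all genes. DESeq2 1.42.0 was an alternative. The test scripts were tested on simulated data. Each p rests on the spread over 3 libraries of unstated mouse numbers, which the fit draws toward the spread of other genes. In an alternative each cell was thinned to 1000 UMIs, which left out 0 to 218 shallower cells per gate. Intervals are exact, at 95%, and cover counting error only.

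All 9 members are named. Of the pathway lists, up to 3 genes with the largest changes each way among those called and all other members of the D and E cyclin, Cip/Kip and Ink4 families are named, and for each member the 2 genes most like it with at least 50 CPM in a sum. A marker check of the macrophage gate is not reported here. Members, lists and tests were chosen with earlier results of these data known.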

Additional observations from a re-analysis of the deposited data

Results flagged for a closer look

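Members whose cycling change differed between cell types, by the joint fit, are listed here with the difference in log2 fold change. Against the mean of the 4 lymphocyte types, the change in macrophages was higher for Ccnd2 (1.54 ± 0.12), Ccnd1 (1.03 ± 0.39), Cdkn1b (0.56 ± 0.10) and Cdk6 (0.51 ± 0.10). It was lower for Cdkn1a (-1.84 ± 0.10), Ccne1 (-0.80 ± 0.18), Cdk4 (-0.74 ± 0.10) and Cdk2 (-0.44 ± 0.16). Against CD4 cells, the change in CD8 cells was higher for Cdkn1a (1.51 ± 0.13) and Cdk6 (0.50 ± 0.13) and lower for Cdkn1b (-0.47 ± 0.13). Against CD8 cells, the change in NK cells was lower for Cdkn1a (-1.35 ± 0.15) and Ccnd2 (-0.69 ± 0.17). The Ccnd1 value is not read as a change: its lymphocyte sums held 0 to 14 UMIs, it passed the filter on low counts only through macrophages, and its call was lost in 7 of 15 alternatives, at 0.52 to 2.37. Cycling cells were deeper than non-cycling cells in every type, and the part of depth in these differences was not tested beyond thinning. The macrophage difference of Cdk6 was lost at 0.17 with gates from markers alone and at 0.14 at Leiden resolution 2, and the Ccnd2 difference of NK and CD8 cells at -0.14 with a cycling gate from 1 UMI. With every cell thinned to 1000 UMIs, 8 differences passed against 13, Ccnd1 included. Among all genes, calls for macrophages against lymphocytes went from 4818 to 1542 with the same thinning. With gates from markers alone all 3 differences between CD8 and CD4 cells were lost, at 0.70 for Cdkn1a, 0.23 for Cdk6 and -0.02 for Cdkn1b.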

How the results depend on the processing

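Across the alternatives, 1750 fitted values of members kept their side of the threshold, 112 lost their call, 31 gained it and 7 changed sign with a call in 1 of the fits. Of the 1750, 90 changed sign and were called in neither fit. Of the treatment ratios, 2764 stayed within the counting interval, 373 moved out of it and 7 changed sign.

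Counts of members called, in which Ccnd1 is included here, moved by more than 1.5 times in these cases. With non-cycling cells that had no UMI of Mki67, Top2a or the S phase genes, the count was 4 for cycling Foxp3-positive cells, 0 for Foxp3-positive against CD4, 4 for NK against CD8 and 8 for the 4 difference contrasts together. With cells thinned to 1000 UMIs it was 4 for cycling Foxp3-positive cells, 5 for NK against CD8, 8 for the difference contrasts and 11 for pairs past 1.5-fold in the combination over the IL-10/2-Trikine. With gates from markers alone it was 1 for Foxp3-positive against CD4, 8 for the difference contrasts, and 25 and 9 pairs past 1.5-fold in the treatment comparisons. With a cycling gate from 1 UMI it was 1 for Foxp3-positive against CD4 and 6 pairs for the combination, and 6 pairs with at least 5 UMIs in the pair. Leaving out a library gave 0 to 1 for Foxp3-positive against CD4 and 7 to 12 for the difference contrasts. Calls among all genes fell in the same settings. With the strictest non-cycling gate they went from 1405 to 474 for Foxp3-positive against CD4 and from 4641 to 2162 for NK against CD8. With thinned cells they went from 4439 to 1207 for cycling Foxp3-positive cells and from 4818 to 1542 for the difference of macrophages and lymphocytes. Without the combination library the difference of NK and CD8 cells went from 320 to 88. So these losses are not particular to the members. The causes were not tested.

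Signs changed as follows: with gates from markers alone, Cdk6 in cycling CD4 cells to 0.24 and Cdkn1a in cycling NK cells to -0.45; with mixed barcodes kept, Ccnd1 in cycling macrophages to -0.29; with thinned cells, the Cdk6 difference of CD8 and CD4 cells to -0.0083. At Leiden resolution 2 the CD8 and CD4 difference was 0.44 for Ccnd2 and 0.049 for Cdkn1b, and 0.0041 for Cdkn1b with unnamed T clusters counted. Ratios without a test changed sign, on the log2 scale, for Cdk2 in all Foxp3-positive cells (-0.11, thinned), for Ccne1 in non-cycling macrophages (-0.31 at resolution 2 over mono-IL-10 and -0.022 in the strictest non-cycling gate for the combination), for Ccne1 in all CD4 cells (0.028, thinned) and for Ccne1 in non-cycling NK cells (0.13 with a gate from 1 UMI, 1.84 in the strictest gate and 0.30 thinned). Counts of all genes called in the cycling comparisons ran from 4263 to 8144 in CD8, 942 to 6943 in CD4, 1207 to 5259 in Foxp3-positive and 1073 to 7018 in NK cells and from 2836 to 7576 in macrophages, the lowest with thinned cells in each.

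Alternatives in which unnamed clusters counted as T cells or the NK gate lost the cluster led by T cell receptor genes, and the difference contrasts, were chosen after seeing the data. No paired analysis was possible because the groups share only replicate number 1 and the library term already holds the pairing of gates within a library.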

Other observations

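Classes outside the 5 types had levels of their own. Neutrophil-like cells held Cdkn1a at 857, 1006 and 868 CPM in the mono-IL-10, IL-10/2-Trikine and combination libraries, above the 551 CPM of the highest gate, from 331, 643 and 127 cells. KP1 tumor cell-like cells held Cdk4 at 404, 480 and 455 CPM, above the 195 CPM of the highest gate. Their Ccnd2 was at 30.6, 14.0 and 31.7 CPM and their Ccnd1 at 4.02, 2.00 and 3.93 CPM, and Ccne1 was at 43.0, 47.7 and 45.0 CPM.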
